A study of Mus musculus with 11 samples.

Results

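ABC transporters are membrane proteins that use ATP to move drugs, sterols, phospholipids, bile salts, peptides or fatty acids across a membrane, and 48 genes of this family, taken by symbol (Abca, Abcb, Abcc, Abcd, Abce, Abcf or Abcg followed by a number), were followed here among the 26921 genes of the series. All cells came from myelin-depleted cerebral cortex of C57BL/6 mice and were profiled with the 10x Chromium Single Cell 3' v2 chemistry, which counts transcripts by unique molecular identifiers (UMIs). The Juvenile libraries held pooled tissue of 6 mice at postnatal day 10 (P10, 4 libraries), the Adult libraries of 6 mice aged 7 to 11 weeks (3 libraries), the Aged libraries of 3 mice aged 18 months (2 libraries), and the EAE libraries of 3 mice (2 libraries). EAE, experimental autoimmune encephalomyelitis, was induced in mice aged 7 to 11 weeks with a myelin oligodendrocyte glycoprotein peptide in Complete Freund's Adjuvant followed by pertussis toxin, and the mice were used at the peak of disease. The first 3 groups were untreated. By the study's methods the mice were female where nothing else is said, and which libraries of a group came from separate pools is not given.

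At the blood-brain barrier, P-glycoprotein (encoded in mice by Abcb1a and Abcb1b) and the breast cancer resistance protein (Abcg2) sit in the luminal membrane of endothelial cells (ECs) and pump lipophilic drugs back into the blood, and MRP4 (Abcc4) exports organic anions and cyclic nucleotides. In the choroid plexus epithelium the barrier lies in the epithelial cells, where MRP1 (Abcc1) and MRP4 are known pumps. Abca1 and Abcg1 load cholesterol onto apolipoproteins and high-density lipoprotein under control of the liver X receptors, and Abcc9 (SUR2) is the regulatory subunit of the ATP-sensitive potassium channel of mural cells. Abce1 and Abcf1 to Abcf3 carry ABC domains but no membrane domain, and act in ribosome recycling and translation. Tap1, Tap2 and Cftr are ABC proteins whose symbols do not match the rule, so they are no members here.

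Promoter windows are shown for 4 members that carry the main results: the EC pumps Abcg2 and Abcc4, the sterol exporter Abca1, and the pericyte member Abcc9. Each run gives 250 bases before and 50 bases from the RefSeq transcription start (GRCm38.p6) on the strand of the gene, and capitals mark the TATA box TATAAA, the GC box with the letters GGGCGG, or a direct repeat of the liver X receptor type, searched on both strands. RefSeq lists 3 starts for Abcg2 and 2 for Abcc4, of which the 1 nearest to the GENCODE gene start is shown. The windows are chr6:58584283-58584582 (plus strand, Abcg2), chr14:118706170-118706469 (minus strand, Abcc4), chr4:53159846-53160145 (minus strand, Abca1) and chr6:142702225-142702524 (minus strand, Abcc9).
Abcg2: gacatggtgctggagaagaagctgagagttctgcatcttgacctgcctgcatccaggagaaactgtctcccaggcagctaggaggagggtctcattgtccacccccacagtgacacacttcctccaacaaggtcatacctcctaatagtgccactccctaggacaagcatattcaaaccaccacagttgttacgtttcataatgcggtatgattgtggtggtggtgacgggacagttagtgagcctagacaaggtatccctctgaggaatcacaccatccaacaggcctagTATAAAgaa
Abcc4: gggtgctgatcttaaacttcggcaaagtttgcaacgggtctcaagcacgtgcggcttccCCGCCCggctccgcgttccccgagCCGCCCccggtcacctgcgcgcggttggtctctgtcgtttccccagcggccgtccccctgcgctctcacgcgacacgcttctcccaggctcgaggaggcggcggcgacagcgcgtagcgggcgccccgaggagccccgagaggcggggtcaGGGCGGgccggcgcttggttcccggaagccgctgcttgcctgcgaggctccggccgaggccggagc
Abca1: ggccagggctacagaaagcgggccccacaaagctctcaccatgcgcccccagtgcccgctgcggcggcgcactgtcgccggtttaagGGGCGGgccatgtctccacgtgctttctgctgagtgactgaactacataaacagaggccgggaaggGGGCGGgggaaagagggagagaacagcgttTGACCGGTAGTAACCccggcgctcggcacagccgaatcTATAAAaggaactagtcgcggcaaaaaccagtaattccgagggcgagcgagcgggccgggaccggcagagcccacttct
Abcc9: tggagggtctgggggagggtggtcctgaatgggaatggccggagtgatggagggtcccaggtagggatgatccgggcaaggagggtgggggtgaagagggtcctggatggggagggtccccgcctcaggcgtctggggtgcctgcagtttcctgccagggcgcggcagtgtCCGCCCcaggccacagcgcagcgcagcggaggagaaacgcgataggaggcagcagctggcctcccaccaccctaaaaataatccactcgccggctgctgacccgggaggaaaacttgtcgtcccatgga
The TATA box of Abca1 ended 24 bases before the start, whereas the only TATAAA of the Abcg2 window lay 41 to 46 bases after it. A GC box was found in another promoter of Abcg2 and not in the window shown. The direct repeat of Abca1, a form of the element bound by liver X receptors, lay 67 to 53 bases before the start on the opposite strand. Its letters were set after the Abca1 window had been seen, and 68 of 32851 promoters (0.207%) held a match, Abca1 alone among the members. TATAAA was found in 7 of 43 member promoters (13.6% of all promoters) and GGGCGG in 21 of 43 (35.7% of all promoters). The promoter table covered 36 of the 48 members, and a match of letters is a description of the window only.

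The 11 libraries held 54646 barcodes and between 15755504 and 34326349 UMIs each, and 50625 cells passed the filters. Clusters were named from marker genes that excluded all members, which gave 21045 ECs, 813 pericytes, 6677 choroid plexus epithelial cells, 8758 microglia (Micro) and 2007 perivascular macrophages (PVMs). Every marker of each named type was detected in that type in every library. Most P10 ECs (98.3%) and P10 choroid plexus cells (84.3%) fell into clusters of their own (5 and 10), and 95.5% of EAE microglia into cluster 6, whereas adult ECs lay mostly in cluster 2, adult choroid plexus in cluster 3 and adult microglia in cluster 1. Adult 1 differed in this, with 749 cells in the EC cluster 15 and 54 in cluster 2, which held 1582 and 1606 cells of Adult 2 and 3. Pairs of libraries shared 10 to 113 cell barcodes. Some libraries of a group (Juvenile 1 and 2, Juvenile 3 and 4, Adult 2 and 3) differed by little more than sampling noise in ECs and microglia, with mean squared differences of 1.03 to 1.33 in units of counting error, against 1.22 to 2.11 for Aged 1 and 2 and EAE 1 and 2 and 2.92 to 12.9 for the remaining pairs of a group. The p-values measure the spread between libraries, which may be technical. The library Adult 1 stood apart. Its ECs held choroid plexus marker UMIs at 48882 CPM (counts per 1000000 UMIs), against 3769 to 17872 CPM in the ECs of the other libraries, together with 22406 CPM of red cell markers. Red cell markers were also high in the Aged ECs, at 13909 and 9910 CPM, against 844 to 4582 CPM in the ECs of the remaining 8 libraries. Finer clusters named as pericytes or capillary ECs included 4 whose leading genes belong to other cell types. A group of 180 pericytes, 160 of them from Adult 1 (which had 195), was led by choroid plexus genes such as Enpp2, Ttr and Folr1. A group of 832 capillary ECs, 806 of them from Adult 1, was led by Vtn, Aldoc, Alas2, Enpp2 and Kl, a group of 132 from EAE by macrophage genes such as C1qa and Csf1r, and a group of 461 from P10 by Ccl4, Ccl3 and Cd74. These cells are part of the values below. Leaving them out, a choice made after seeing the data, left Adult 1 with 46 ECs and 35 pericytes. Member calls over the 5 types were then 50, 6 and 29 (P10, 18 months, EAE), against 50, 8 and 34 with them. None turned its direction. The share of all genes called in ECs was then 39.8%, 7.72% and 25.4%, against 48%, 9.51% and 31.9% with them.

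A level below is given in CPM, the UMIs of a gene per 1000000 UMIs of a cell type in a library. On this scale, fewer cells with a transcript and less transcript per cell cannot be told apart, and levels are compared between cell types and groups, not between genes.

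Among the 5 types, the 2 main efflux pumps of the blood-brain barrier were highest in ECs. Abcb1a (chr5:8660077-8748575, plus strand, mm10) was measured in ECs at 297, 257, 284 and 289 CPM at P10, at 739, 928 and 927 CPM in adults, at 707 and 736 CPM at 18 months and at 893 and 927 CPM in EAE. The P10 libraries were the lowest, without overlap with any other group. In the other 4 types the highest library was 49.1 CPM, in PVMs, which is below the lowest EC library. Abcb1a was higher in ECs than in the mean of the other 4 types by 5.16 ± 0.11 (log2, SE; edgeR adjusted p = 4.95e-40).

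Abcg2 (chr6:58584523-58695676) was measured in ECs at 308, 291, 344 and 356 CPM at P10, at 853, 810 and 779 CPM in adults, at 874 and 869 CPM at 18 months, and at 953 and 974 CPM in EAE. Again the 4 P10 libraries were the lowest, and both EAE libraries were above all others. It was higher in ECs by 3.62 ± 0.15 on the log2 scale. Of the other types, pericytes (40.7 to 105 CPM), microglia (42.4 to 81.6 CPM) and PVMs (17.0 to 85.1 CPM) overlapped in level, and the choroid plexus ranged from 5.6 to 70.1 CPM for Abcg2. Fibroblasts, which are not among the 5 types, held Abcg2 at 195.5 to 813.6 CPM and Abcb1a at 26.1 to 346.8 CPM, ranges that overlap with those of ECs.

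Abcc4 (chr14:118482692-118706219, minus strand) was the third EC pump, at 53.4, 56.6, 64.1 and 59.1 CPM at P10, 99.5, 104 and 101 CPM in adults, 150 and 144 CPM at 18 months, and 227 and 224 CPM in EAE. None of these 4 groups overlapped. Abcc4 was higher in ECs by 3.21 ± 0.12 (log2) and also higher in choroid plexus epithelium by 1.40 ± 0.14, where it lay between 15.9 and 38.5 CPM. Abcc6, whose product releases ATP from cells, was higher in ECs by 4.03 ± 0.27 at a low level, 6.1 to 19.6 CPM over the libraries.

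Of 34 members in the fit of cell types, 9 were higher in ECs, against 37.7% of all genes. In either direction 21 members differed in ECs (66.4% of all genes), 16 in pericytes (48.5%), 26 in the choroid plexus (77.3%), 23 in microglia (71.4%) and 22 in PVMs (57.3%). Besides the pumps above, the 9 higher in ECs were Abca3 (0.86), Abcd4 (0.59), Abcf2 (0.58), Abcf1 (0.52) and Abcf3 (0.29), the last lost in 5 of 11 fits that left out a library. These 5 differences on the log2 scale were small beside those of the pumps. The share of members was below that of all genes, while a few members had large differences. Single members with large differences were also found in other types, such as Abcc9 in pericytes, Abcc3 in microglia and Abca4 in the choroid plexus (given below).

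**Figure D1:**
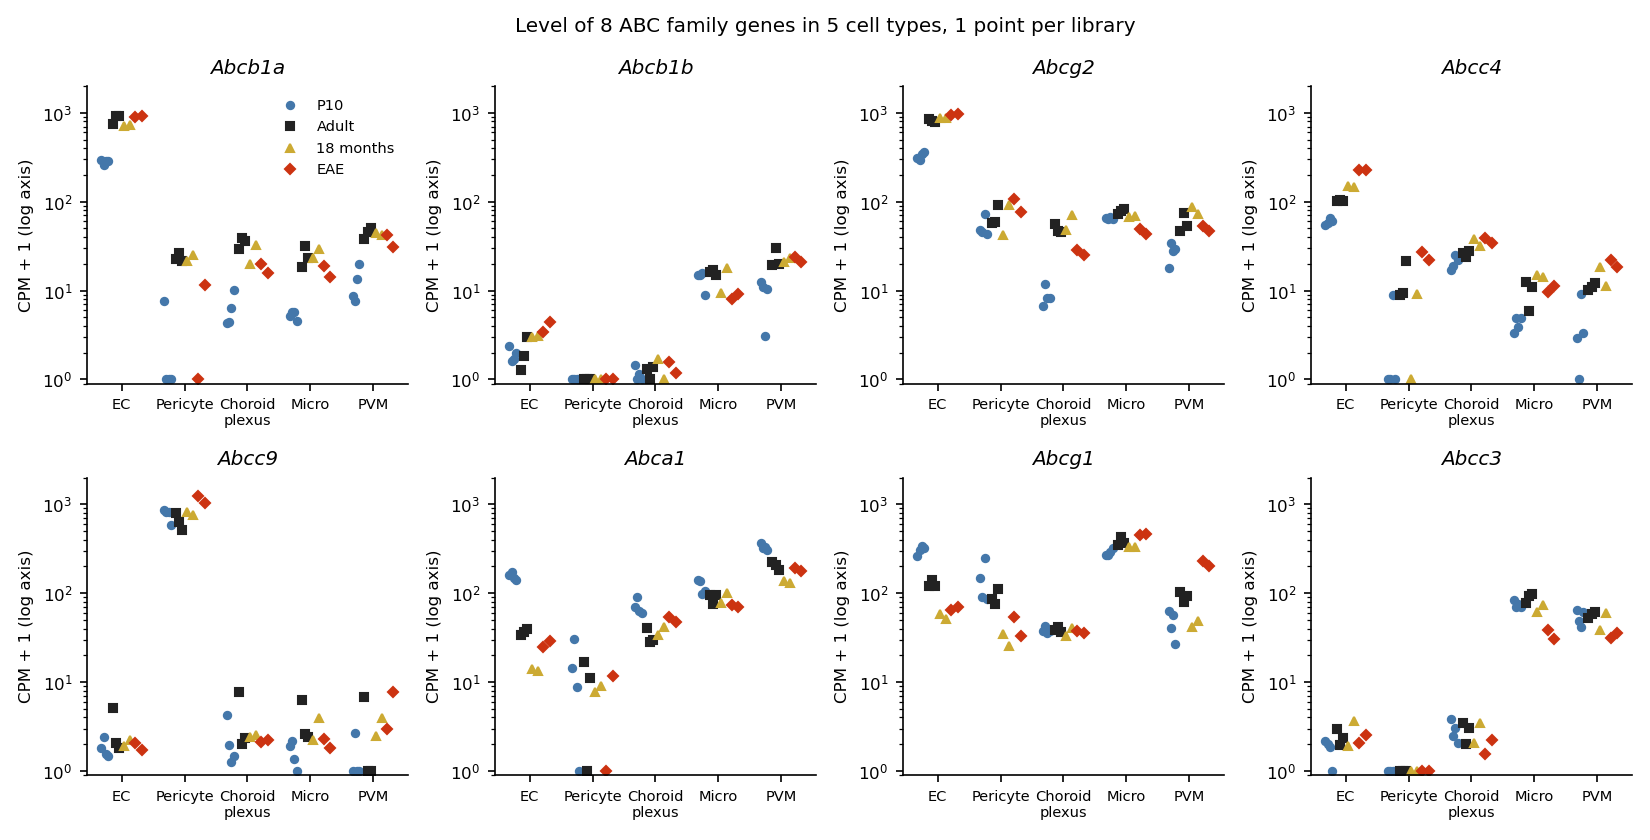
Levels of 8 ABC family genes in 5 cell types (EC, pericyte, choroid plexus epithelium, microglia, PVM), as CPM + 1 on a log axis, with 1 point per library and colours for P10, adult, 18 months and EAE. By the median over all libraries, Abcb1a, Abcg2 and Abcc4 are highest in ECs, Abcc9 in pericytes, Abcg1 and Abcc3 in microglia, and Abca1 and Abcb1b in PVMs, while Abcg1 at P10 overlaps between ECs and microglia and Abcc3 between microglia and PVMs.

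In pericytes, 4 members were higher than in the mean of the other types (16.2% of all genes). Abcc9 (chr6:142587862-142702315, minus strand) was measured at 867, 814, 822 and 585 CPM at P10, 793, 637 and 518 CPM in adults, 808 and 765 CPM at 18 months, and 1223 and 1034 CPM in EAE. The EAE libraries were the highest and the other 3 groups overlapped. In the other 4 types no library of Abcc9 reached 10 CPM, and the difference from the other types was 8.55 ± 0.15 (log2). Smooth muscle cells, the mural cells of larger vessels and not among the 5 types, held Abcc9 at a median of 24.7 CPM (0 to 83.8) over the libraries. Its channel partner Kcnj8 had a median of 1863 CPM in adult pericytes, against 2.8 CPM in adult ECs. Abca8a (3.97 ± 0.43), Abcb10, a mitochondrial transporter of the haem pathway (1.6 ± 0.27), and Abcc5, an exporter of cyclic nucleotides (0.63 ± 0.14), were the other 3. Abca8a lies in a cluster of related genes with Abca8b and Abca9 on chromosome 11, so its reads could be split, which was not tested. It had 0 UMIs in 3 of 4 P10 pericyte libraries. Pericytes were the shallowest type, with 76063 to 374606 UMIs in a library.

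The choroid plexus epithelium had 13 members higher than in the other types (41.7% of all genes), most of them lipid or intracellular transporters. Abca4, the flippase of retinal conjugates known from photoreceptors, was 5.39 ± 0.17 higher on the log2 scale and lay between 67.0 and 118 CPM. Abca5 (3.40 ± 0.18), Abca2 (3.3 ± 0.14) and Abca8a (3.06 ± 0.26) followed, then Abcb9, a lysosomal peptide transporter (2.39 ± 0.18), and the pump Abcc1 (2.06 ± 0.17). Abcd3, which brings fatty acids and bile acid precursors into peroxisomes, was higher by 1.67 ± 0.10, and the mitochondrial Abcb8 by 1.39 ± 0.13. Abca7 (1.1), Abce1 (0.46) and Abcf3 (0.35) were higher by less, and Abcc4 is given above.

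Microglia and PVMs, the macrophages of the brain tissue and of its vessel walls, shared part of their members. In microglia 15 members were higher than in the other types (35% of all genes) and in PVMs 9 (27.2%), and the 9 were all among the 15. Abcc3, an exporter of conjugated bile salts, was higher by 5.41 ± 0.19 on the log2 scale in microglia and by 4.93 ± 0.23 in PVMs. Its libraries lay between 29.6 and 97.1 CPM in microglia and between 29.9 and 64.4 CPM in PVMs, ranges that overlap.

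Abcb1b (chr5:8798147-8866315), the second P-glycoprotein gene of the mouse, was higher in the macrophages than in the mean of the other types. In PVMs it was measured at 11.4, 9.90, 2.05 and 9.35 CPM at P10, 18.4, 29.5 and 19.0 CPM in adults, 20.2 and 22.1 CPM at 18 months, and 22.9 and 20.1 CPM in EAE. The P10 libraries were the lowest and the other groups overlapped. In all ECs summed no library exceeded 3.41 CPM for Abcb1b, and the difference from the other types was 4.56 ± 0.38 in PVMs and 3.94 ± 0.37 in microglia. Arterial ECs, from 12 to 153 cells in a library, held Abcb1b at 2.37, 1.67, 1.31 and 3.43 CPM at P10, at 0, 0 and 16.0 CPM in adults, at 8.04 and 22.2 CPM at 18 months, and at 18.6 and 32.4 CPM in EAE. These values rest on 0 to 10 UMIs in a library, those of 18 months and EAE overlap with the PVM libraries of the same groups, and Abcb1b was not tested between subtypes. Abcb1a and Abcb1b are close paralogs, so reads of their shared stretches could be split between them.

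Abca1 (chr4:53030787-53159895, minus strand) was highest in PVMs, with 367, 323, 327 and 304 CPM at P10, 224, 205 and 180 CPM in adults, 136 and 130 CPM at 18 months, and 190 and 174 CPM in EAE. The level was highest at P10 and lowest at 18 months, and the adult and EAE libraries overlapped. It was higher in PVMs by 2.55 ± 0.19 and in microglia by 0.93 ± 0.21 on the log2 scale.

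Abcg1 (chr17:31057675-31117988, plus strand) had its highest median over the libraries in microglia, with 268, 269, 293 and 317 CPM at P10, 350, 431 and 370 CPM in adults, 326 and 328 CPM at 18 months, and 455 and 456 CPM in EAE. The EAE libraries were above all adult ones, and the P10 libraries below them. The difference of microglia from the other types was 2.09 ± 0.23 (log2). P10 ECs, at 261 to 340 CPM, overlapped with P10 microglia.

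The other members of the macrophages included peroxisomal and lipid transporters. Abcd2, which imports very-long-chain fatty acids into peroxisomes, was higher in microglia by 3.5 ± 0.16 and in PVMs by 3.15 ± 0.19. Abcb4, a phosphatidylcholine floppase of bile formation, was higher by 4.84 ± 0.37 in microglia and by 3.13 ± 0.62 in PVMs, at no more than 24.5 CPM. Abca9 (2.57 and 3.63), Abcg3 (2.96 and 4.74) and Abcd4 (0.46 and 0.92, a lysosomal cobalamin transporter) were also shared, with microglia given first. Abcg3 and Abca9 have related genes in the genome, so their reads could be split and their values may be uncertain, which was not tested. In microglia alone, Abcc5 (0.98), Abcb6 (0.73), Abca3 (0.60), Abcf3 (0.36) and Abcf2 (0.32) were also called. None of these calls in microglia or PVMs was lost with near-identical pairs of libraries summed or with any of the 11 libraries left out.

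**Figure D2:**
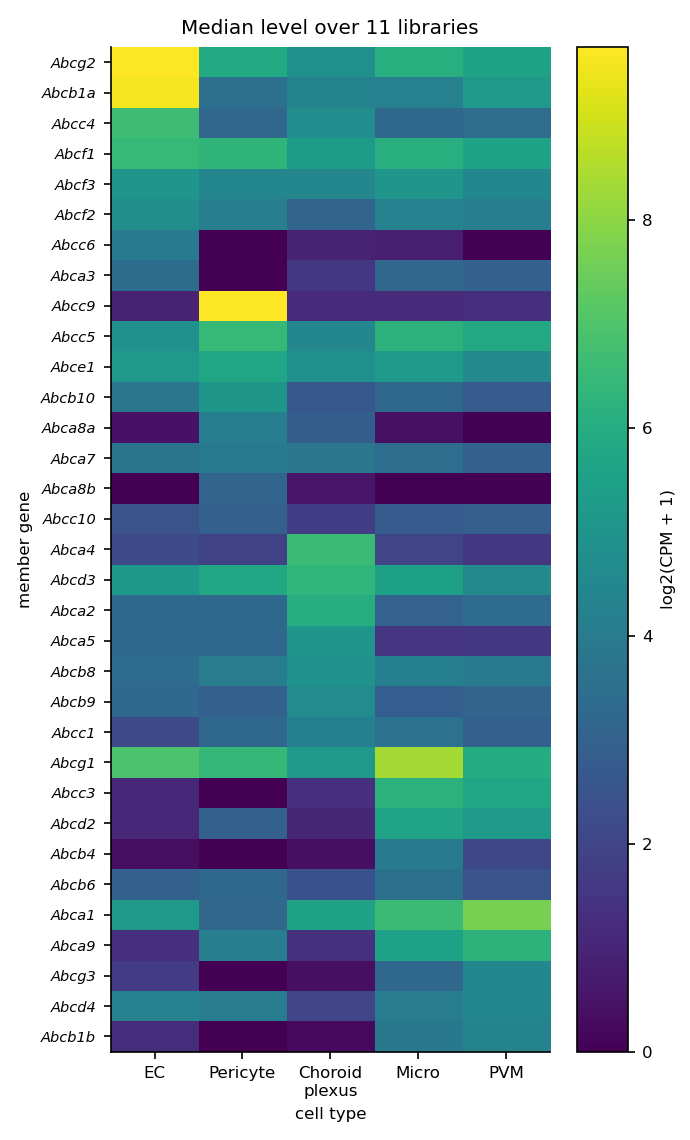
Median level over 11 libraries of members with a median of at least 5 CPM in a type, as log2(CPM + 1) in 5 cell types, ordered by the type where each is highest. Colours can be compared along a row but not between rows, since 3' UMIs of different genes are not on 1 scale; along their rows Abcg2 and Abcb1a are brightest in ECs and Abcc9 in pericytes.

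At P10 against adult, the pumps Abcb1a, Abcg2 and Abcc4 were lower and the sterol exporters Abca1 and Abcg1 higher in ECs. Abcb1a fell by 1.51 ± 0.10 on the log2 scale (0.350 of the adult level; edgeR adjusted p = 3.95e-08), Abcg2 fell by 1.22 ± 0.10 and Abcc4 fell by 0.69 ± 0.09, each without overlap of the libraries. Abca1 rose by 2.21 ± 0.09, or 4.63-fold (adjusted p = 5.29e-10), and Abcg1 by 1.39 ± 0.11, or 2.62-fold. Of 32 members tested in ECs, 17 were called (48% of all genes), 5 higher and 12 lower. The share is near that of all genes, while the median change of the tested members was -0.27 against -0.02 for all genes.

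The EC library values of Abca1 were 160, 171, 148 and 139 CPM at P10, 32.5, 35.9 and 38.3 CPM in adults, 12.9 and 12.2 CPM at 18 months, and 23.8 and 28.0 CPM in EAE. These 4 groups did not overlap, and the P10 libraries were far above the rest. Those of Abcg1 were 261, 304, 340 and 323 CPM at P10, 119, 139 and 120 CPM in adults, 57.3 and 50.5 CPM at 18 months, and 64.4 and 69.2 CPM in EAE. Abcg1 had the same order of groups, also without overlap.

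By role, 4 of 9 tested multidrug pumps were lower in P10 ECs and 0 were higher, against 23.1% of all genes lower and 24.9% higher, the fourth being Abcc10 (-0.74), which was lost when near-identical pairs were summed. Of 9 tested sterol and lipid members, 2 were higher and 6 lower. The 6 were Abcg3 (-2.02), Abca9 (-1.53), Abca5 (-1.31), Abca2 (-1.02), Abca7 (-0.86) and Abca3 (-0.62), all under 20 CPM in every EC library. Abca9 was lost without the capillary ECs led by genes of other types. In the remaining roles Abcb8 of the mitochondrial inner membrane (0.97), Abcd3 (0.72) and Abce1 (0.41) were higher, and Abcb9 (-1.29) and Abcb10 (-0.44) were lower, Abcb10 being lost with near-identical pairs summed.

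In the choroid plexus, 20 of 33 tested members differed at P10 (60.7% of all genes), 11 higher and 9 lower. Abcg2 fell by 2.88 ± 0.15 on the log2 scale, from 54.5, 45.5 and 45.0 CPM in adults to 5.6, 10.8, 7.3 and 7.2 CPM at P10 (edgeR adjusted p = 1.02e-12). Abcb1a fell by 2.66 ± 0.27, from 28.1, 38.5 and 35.0 CPM to 3.3, 3.4, 5.4 and 9.1 CPM. The P10 libraries were the lowest of all groups for both. The summed level of 10 EC markers in these cells, all 10 of them detected, moved in the same direction, from 1703 to 1831 CPM in adults to 511 to 599 CPM at P10. Their part in the 2 falls was not tested beyond the ratios given further on. Choroid plexus cells had a median of 7962 to 10305 UMIs per cell at P10 and of 3820 to 5784 in adults. The part of this depth was not tested.

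Among the other members higher in the P10 choroid plexus were Abcc10 (1.61), Abca1 (0.89), Abcb6 (0.78), Abcb10 (0.63), Abcc1 (0.49), Abcc5 (0.46), Abcd3 (0.39) and Abca4 (0.35), and lower were Abcf2 (-1.05), Abca7 (-0.68), Abcf3 (-0.63), Abca2 (-0.54), Abcf1 (-0.51) and Abcc4 (-0.47). Of these, Abcb10 and Abcc5 were lost with near-identical pairs summed, as was Abcc9 (-2.13), whose choroid plexus libraries overlapped (0.27 to 3.28 CPM at P10, 0.998 to 6.73 CPM in adults). Abca1 was measured at 69.8, 88.5, 62.1 and 58.6 CPM at P10 and 39.9, 27.3 and 28.8 CPM in adults. The P10 libraries were all higher.

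Abcc8 (SUR1, the sulfonylurea receptor known from insulin-secreting cells) and Abcg5, which forms a sterol exporter with Abcg8, were rare transcripts of the P10 choroid plexus. Abcc8 had 50 UMIs over the 4 P10 libraries (2.61 to 3.75 CPM) and 0 UMIs in the adult libraries, which makes it at least 18.7-fold higher against a floor of 3 UMIs over the adult group. It had 0 UMIs in the Aged and EAE choroid plexus as well. Abcg5 was at 0.98 to 3.84 CPM at P10 and at most 0.41 CPM in adults (3.12 ± 0.64, log2). Abcg8 had 13 UMIs at P10 and 0 in adults, at least 4.86-fold by the same floor, and was not tested in the fit.

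In microglia 7 of 29 tested members differed at P10 (26.9% of all genes). Abcb1a fell by 2.39 ± 0.28 on the log2 scale, from 17.5, 30.8 and 22.5 CPM to 4.1, 4.8, 4.7 and 3.5 CPM. All P10 libraries were below the adult ones. Abcc4 (-1.54), Abca3 (-1.33), Abca2 (-1.31), Abcc5 (-0.82) and Abcg1 (-0.43) fell as well, and Abcb8 rose by 0.79. The summed EC markers in microglia were 317 to 374 CPM at P10 and 1412 to 1681 CPM in adults, and per 1000 EC marker UMIs Abcb1a was at 11.0 to 14.6 at P10 and 12.3 to 18.3 in adults, which overlap. The same ratio of Abcc4 was 7.4 to 12.4 at P10 and 2.9 to 8.0 in adults. Without the library Adult 1, the calls of Abca2, Abca3, Abcb8 and Abcc4 in microglia were lost.

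In PVMs 6 of 20 tested members differed at P10 (13.6% of all genes). Abca1 rose by 0.57 ± 0.12, whereas Abcb1a (-2.10), Abcb1b (-1.51), Abcg2 (-1.22), Abcg1 (-1.10) and Abcc5 (-0.73) fell. Abcb1a was measured at 7.6, 6.6, 12.3 and 18.7 CPM at P10 against 36.7, 44.2 and 49.1 CPM in adult PVMs. No P10 library reached the adult ones. EC markers in PVMs summed to 358 to 1183 CPM at P10 and to 1492 to 1923 CPM in adults, and Abcb1a per 1000 of their UMIs, 10.4 to 28.0 at P10 and 23.0 to 25.6 in adults, overlapped.

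In pericytes none of the 5 members that passed the count filter was called at P10 by edgeR (36.3% of all genes). Their changes had a median of -0.12, and 0 of the 5 were called at 18 months as well (1% of all genes). DESeq2 called 0 in both comparisons, and at an unadjusted p under 0.05 there were 0 members at P10 and 1 at 18 months. The share of all genes at that unadjusted threshold is not given. Without the pericytes led by choroid plexus genes, Abcc5 was called lower at P10 (-0.94, adjusted p = 0.0209). The choroid plexus markers summed to 24670 to 66112 CPM in adult pericytes and to 5325 to 28302 CPM in those of the other groups, and their part was not tested. Abcc9, the member that marks these cells, overlapped between P10, adult and 18 months.

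**Figure D3:**
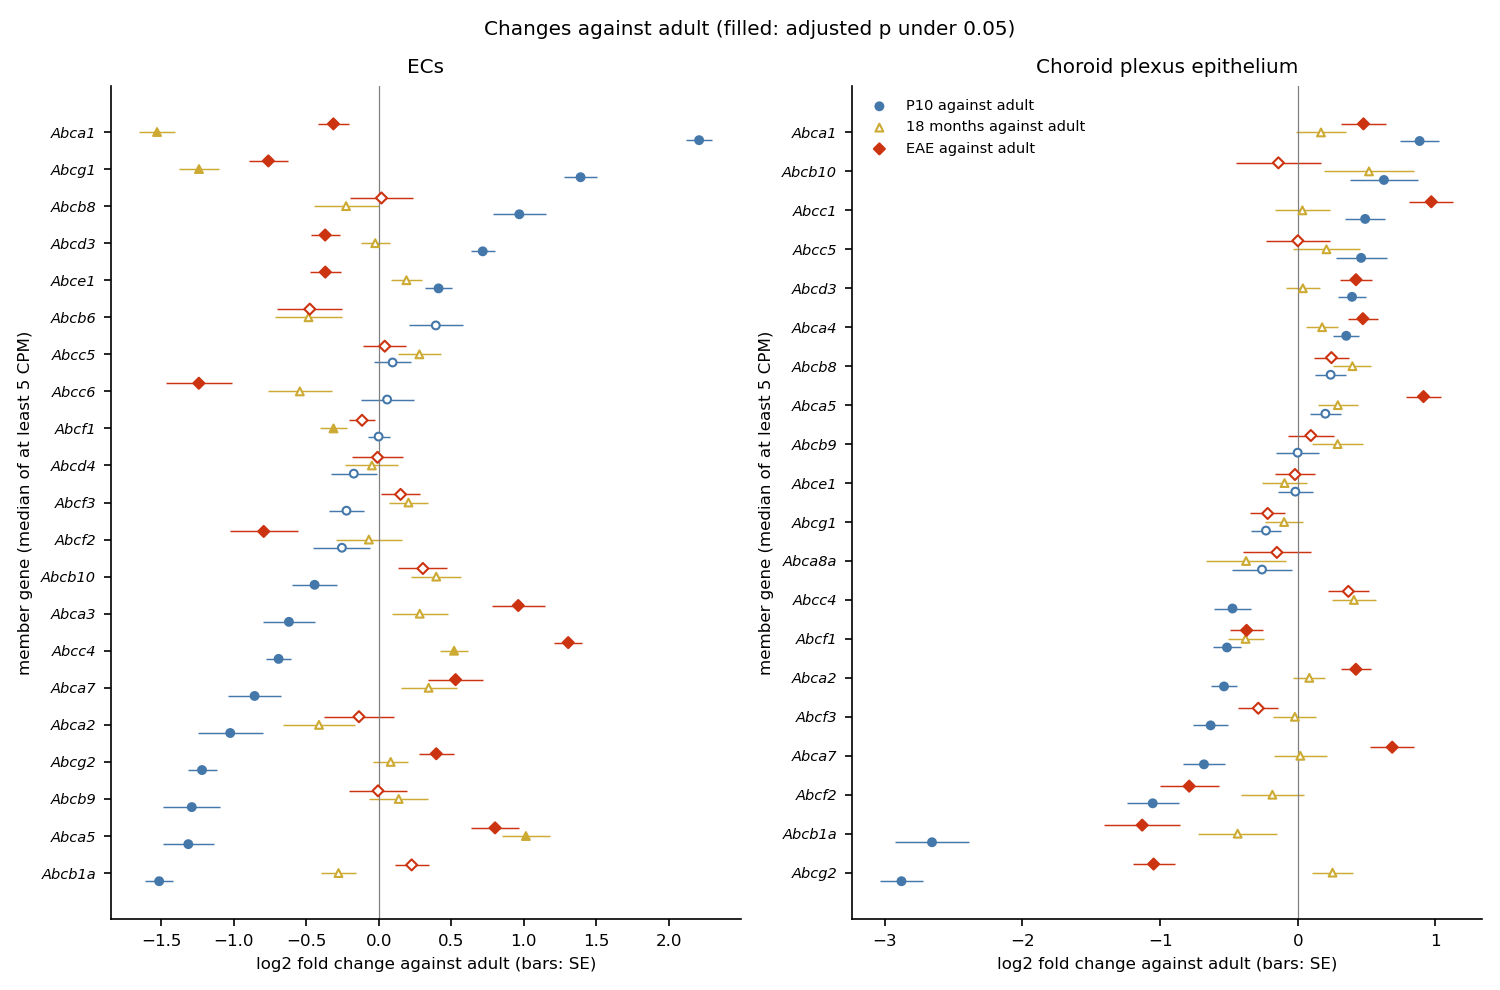
Log2 fold changes against adult with their SE for members with a median of at least 5 CPM in ECs (left) and in choroid plexus epithelium (right), at P10, 18 months and in EAE; filled symbols have an adjusted p under 0.05. All 3 comparisons use the same adult libraries. In ECs Abca1 and Abcg1 lie to the right at P10 and to the left at 18 months, and Abcc4 lies to the left at P10 and to the right in EAE.

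At 18 months against adult, few members changed. In ECs 6 of 32 were called (9.51% of all genes), 3 higher and 3 lower. Abca1 fell by 1.53 ± 0.12 on the log2 scale (edgeR adjusted p = 1.66e-05) and Abcg1 by 1.24 ± 0.14, to 0.347 and 0.423 of the adult level. Without the capillary ECs led by genes of other types, Abca1 was kept, at -1.51, and Abcg1, at -1.13, was no longer called (adjusted p = 0.107), whereas without the whole of Adult 1 both were kept. Of the Aged ECs, 74.5% lay in cluster 0 and 20.7% in cluster 2. These held 18.8% and 64.9% of the adult ones, those of cluster 2 nearly all from Adult 2 and 3. The Aged ECs also carried more red cell RNA than Adult 2 and 3 (given above). The part of both in these values was not tested. Abca5, a lysosomal lipid transporter, rose by 1.01 ± 0.17, from 11.0, 8.3 and 7.9 CPM to 19.1 and 17.2 CPM. Both Aged libraries were above the 3 adult ones.

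Abcc4 rose by 0.52 ± 0.10 in Aged ECs, from 99.5 to 104 CPM in adults to 144 and 150 CPM. Abcc1 (0.89) and Abcf1 (-0.31) were called too, but were lost with near-identical pairs summed. Of the 6 calls in Aged ECs, 2 were kept with each of the 11 libraries left out in turn. Abcb1a and Abcg2 were not called in Aged ECs, where Abcb1a lay at 707 and 736 CPM and Abcg2 at 874 and 869 CPM. In PVMs 2 of 20 members were lower (2.87% of all genes), Abcg1 by 1.02 ± 0.24 and Abca1 by 0.58 ± 0.15. PVM Abcg1 was measured at 40.4 and 47.1 CPM at 18 months against 101, 78.6 and 91.8 CPM in adults. The Aged libraries were lower than each adult one. Abcg1 was lost without either Aged library, and Abca1 with pairs summed, in DESeq2 and in 6 of 11 fits that left out a library.

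None of the members tested at 18 months was called by edgeR in the choroid plexus (33 tested, 2.43% of all genes) or in microglia (29 tested, 3.02%). DESeq2 called 0 in either type, and 4 and 5 of these members had an unadjusted p under 0.05. No share of all genes is given at that threshold, so these 2 counts cannot be read against it. With Aged 1 and 2 summed as well, which leaves 1 Aged sample, 0 of the 8 calls remained.

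In EAE against adult, Abcc4 was higher and Abcc6 and Abcg1 were lower in ECs. Abcc4 rose by 1.31 ± 0.10 on the log2 scale, or 2.47-fold, to 227 and 224 CPM (edgeR adjusted p = 3.89e-07). Abcc6 fell by 1.24 ± 0.23, from 9.9, 19.6 and 18.6 CPM to 6.5 and 6.1 CPM. Both EAE libraries were below the adult ones, of which Adult 1 was the lowest. In ECs 13 of 32 members were called (31.9% of all genes), 7 higher and 6 lower, and the median change of the members was 0.01 against -0.02 for all genes. The EAE ECs lay in cluster 4 (51.2%), which held 0.361% of the adult ECs, in cluster 0 (45.8%) and in cluster 2 (3.0%). Of the adult ECs, 18.8% lay in cluster 0 and 64.9% in cluster 2, nearly all of the latter from Adult 2 and 3. The groups were thus spread differently over the clusters. The part of this was not tested.

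Among the multidrug pumps of EAE ECs, 4 of 9 rose and 1 fell, against 16.8% of all genes higher and 15.1% lower. Abcc1 rose by 1.07 ± 0.24 and Abcg2 by 0.40 ± 0.12, which is 1.32-fold, and Abcg2 was lost without either EAE library and with library totals as the only scale. Abcb1b rose by 1.49 ± 0.49 but stayed at 2.4 and 3.4 CPM and was lost with pairs summed (adjusted p = 0.050). Abcb1a was not called, at 893 and 927 CPM against 739 to 928 CPM in adult ECs.

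Sterol and lipid members of EAE ECs went both ways, 3 higher and 2 lower of 9 tested, beside the same shares of all genes. Abca3 (0.96), Abca5 (0.80) and Abca7 (0.53) were higher, and Abcg1 (-0.76) and Abca1 (-0.31) were lower. With each of the 11 libraries left out in turn, 5 of the 13 EC calls were kept. Without the capillary ECs led by genes of other types, 8 of the 13 EC calls were kept, and Abcg1 (-0.66, adjusted p = 0.226), Abca1, Abcb1b, Abcd3 and Abce1 were not. Abca1 was also lost with size factors in place of TMM (adjusted p = 0.0559), in DESeq2 (adjusted p = 0.0907) and without a count filter. Abca7 and Abca1 were lost with near-identical pairs summed, and so were the lower values of Abcf2 (-0.79), Abcd3 (-0.37) and Abce1 (-0.37).

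In the EAE choroid plexus 12 of 33 members were called (38.2% of all genes), 8 higher and 4 lower. Of these 12 calls, 6 were kept with each of the 11 libraries left out in turn. Abcc1 rose by 0.97 ± 0.16, from 17.1, 13.2 and 15.6 CPM to 34.9 and 31.7 CPM. Abca5 rose by 0.91 ± 0.12, from 30.3, 22.7 and 23.2 CPM to 49.6 and 56.7 CPM. For both genes the 2 EAE libraries were the highest of the group comparison. Abca7 (0.69), Abca1 (0.48), Abca4 (0.47), Abca2 (0.42) and Abcd3 (0.42) rose with them, which makes 5 of 11 tested sterol and lipid members higher and 0 lower (18.1% and 20.1% of all genes).

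Lower in the EAE choroid plexus were Abcb1a (-1.13 ± 0.28), Abcg2 (-1.05 ± 0.15), Abcf2 (-0.79) and Abcf1 (-0.37). Abcb1a was measured at 19.1 and 14.9 CPM and Abcg2 at 27.9 and 23.8 CPM in EAE, below every adult library. The summed EC markers in these cells were 499 to 590 CPM in EAE against 1703 to 1831 CPM in adults. Per 1000 EC marker UMIs, Abcb1a was higher in EAE (29.8 to 32.3) than in adults (16.5 to 21.9). So was Abcg2 (47.3 to 47.7 against 24.6 to 32.0). Abca1 and Abcf1 were lost with pairs summed. Most EAE choroid plexus cells (55.2%) were in cluster 14, which held 9.2% of the adult ones. Choroid plexus cells had a median of 11636 and 10196 UMIs per cell in EAE, against 3820 to 5784 in adults. The part of cluster and depth in these values was not tested.

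In EAE microglia 5 of 29 members were called (27.9% of all genes), 1 higher and 4 lower. Abcb4 fell by 2.0 ± 0.38 on the log2 scale, from 15.2, 9.7 and 15.5 CPM to 2.0 and 3.9 CPM, and Abcc3 by 1.18 ± 0.16, from 76.8, 92.3 and 97.1 CPM to 37.0 and 29.6 CPM. The EAE libraries were the lowest of all 4 groups for both genes. Abcd3 fell by 0.90 ± 0.16 and Abcg2 by 0.54 ± 0.13, while Abcg1 rose by 0.47 ± 0.12, a call lost with library totals as the only scale and without EAE 2. In the same cells the 9 microglia markers summed to 5608 to 5674 CPM against 15604 to 16046 CPM in adults, and 7 monocyte markers to 285 to 317 CPM against 41.8 to 56.3 CPM. EC markers in them summed to 1412 to 1681 CPM in adults and to 528 to 596 CPM in EAE, while Abcg2 per 1000 EC marker UMIs was 46.2 to 57.8 in adults and 80.2 to 80.8 in EAE. Cluster 6 held 95.5% of the EAE microglia and 2.39% of the adult ones. Their part in these values was not tested.

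In EAE PVMs 3 of 20 members were called (20.4% of all genes). Abcg1 rose by 1.37 ± 0.18 on the log2 scale, or 2.58-fold, to 227 and 202 CPM (edgeR adjusted p = 3.05e-06), above every other PVM library. Abcc5 fell by 0.81 ± 0.22. Microglia markers in these PVMs summed to 925 to 936 CPM in EAE and 3231 to 3523 CPM in adults, and monocyte markers to 304 to 324 CPM and 65.4 to 70.4 CPM. Their part in the rise of Abcg1 was not tested.

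In EAE pericytes 1 of 5 members was called (4.83% of all genes). Abcc9 rose by 0.63 ± 0.20 (edgeR adjusted p = 0.0475), and the call was lost with near-identical pairs summed (adjusted p = 0.12) in DESeq2 and in 5 of 11 fits that left out a library. Without the pericytes led by choroid plexus genes it was 0.74 ± 0.20 (adjusted p = 0.0191). Kcnj8, which codes for the pore of the same channel, rose by 0.64 ± 0.15 in EAE pericytes (adjusted p = 0.00544), from 1848 to 2060 CPM in adults to 3219 and 3234 CPM.

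Over the 5 types, 50 of 119 tests were called at P10 (18 higher, 32 lower), 8 at 18 months (3 higher, 5 lower) and 34 in EAE (18 higher, 16 lower). Of all genes, 13.6% to 60.7% were called at P10, 1% to 9.51% at 18 months and 4.83% to 38.2% in EAE, depending on the type. With library totals alone as the scale, EAE gave 16 higher and 25 lower. The calls lost on that scale were those of Abcc4 and Abcc9 in the P10 choroid plexus and, in EAE, of Abcg2, Abca7 and Abcb1b in ECs, Abcf1 in the choroid plexus and Abcg1 in microglia. When the 3 near-identical pairs were summed, 44, 5 and 24 of these calls were kept, and 39, 2 and 15 were kept with each of the 11 libraries left out in turn. With the pairs summed, ECs kept 15 calls at P10 (34.8% of all genes), 4 at 18 months (3.19%) and 7 in EAE (23.8%), and the choroid plexus kept 16 (51%), 0 (1.41%) and 10 (31.4%). Microglia kept 7 (19.3%), 0 (1.01%) and 5 (23.5%), PVMs 6 (7.51%), 1 (1.53%) and 2 (17.2%), and pericytes 0 (28.1%), 0 (0.599%) and 0 (3.28%), the percentages being those of all genes called in the same fits. Abcb9 in EAE PVMs, which had not passed the count filter otherwise, was the 1 further call. Of the 48 members, 37 could be tested in a type.

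Whether a member changed differently in another type than in ECs was tested with a type by group term. For the choroid plexus, 17 of 35 members differed at P10 (48.9% of all genes), 3 at 18 months (3.39%) and 8 in EAE (24.1%). For microglia the counts were 9 (17.1%), 2 (0.947%) and 6 (13.8%), and for PVMs 5 (9.31%), 1 (0.548%) and 2 (5.81%). In pericytes 0 were called by edgeR (4.07%, 0.0473% and 0.71%) or DESeq2, with 8, 4 and 4 members at an unadjusted p under 0.05. The unadjusted counts stand without the share of all genes.

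Abca1 and Abcg1 differed from ECs in several types. The P10 rise of Abca1 in ECs was larger than the change in the choroid plexus by 1.21 ± 0.15, in microglia by 1.64 ± 0.17 and in PVMs by 1.53 ± 0.15 on the log2 scale. For Abcg1, which rose in P10 ECs and fell in P10 PVMs and microglia, the difference was 2.41 ± 0.21 against PVMs and 1.69 ± 0.13 against microglia. In EAE, Abcg1 fell in ECs and rose in PVMs, a difference of 2.16 ± 0.18 (edgeR adjusted p = 4.54e-16). At 18 months the change of Abca1 in ECs was below that in microglia by 1.64 ± 0.22. It was also below that in PVMs by 0.96 ± 0.22, a call lost in DESeq2, with all near-identical libraries summed, and without Adult 3, Aged 1 or Aged 2.

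Along the vessel tree, ECs were divided into arterial (1037 cells), capillary (12567), venous (1200) and arteriolar capillary (3194) cells, with 3047 cells unnamed. Per library, unnamed cells numbered 111, 78, 387 and 350 at P10 and 0 in adults. They numbered 161 and 144 at 18 months and 916 and 900 in EAE. These cells were left out of the tests of subtypes, and the part of this was not tested. The capillary cells include the 3 groups led by genes of other types described above, which made up 806 of the 828 capillary cells of Adult 1, 212 of 248 and 240 of 269 in Juvenile 1 and 2, and 65 of 1782 and 67 of 1685 in EAE. No P10 cluster was named arteriolar capillary, and that subtype was left out of the tests. The venous cells of Adult 1, 5 in number, were dropped. Groups with Alkbh5, a venous marker of the paper, among their leading genes were named capillary here (727 adult, 1172 Aged and 765 EAE cells). The adult, Aged and EAE cells named venous had Vcam1 and Lrg1 among their leading genes. Venous against capillary below therefore does not set all venous ECs of the paper against its capillary ones, and the part of this was not tested. ECs were clustered and named within each group, so a subtype name may cover different cells at P10 and in adults. Arterial cells were 464 of 3123 ECs at P10 and 243 of 4992 in adults, where 939 were arteriolar capillary. The part of this in the changes below was not tested. Of 20 members tested, 7 differed between arterial and capillary ECs (34.6% of all genes) and 4 between venous and capillary ECs (28.8%). Abcg1 was 3.14 ± 0.28 lower on the log2 scale in arterial ECs, with a median of 18.4 CPM over the libraries against 159 CPM in capillaries. Abcg2 was 1.18 ± 0.27 lower there, with 259 against 870 CPM. These differences are over all groups together. At P10 alone the median of Abcg2 was 405 CPM in arterial and 323 CPM in capillary ECs, so its lower arterial level does not hold for P10.

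Among the others that differed in arterial ECs were Abca1 (-1.09), Abcf1 (-0.28), Abca5 (1.13), and Abca2 (0.55). In venous ECs Abcg1 (-0.93), Abcc6 (-0.72) and Abca2 (0.50) were among those that differed from capillaries. With near-identical pairs summed, Abca1 and Abca2 in arterial ECs and Abcg1, Abcc6 and Abca2 in venous ECs were lost. Without the groups led by genes of other types, Abca5 and Abca2 no longer passed the count filter, and Abcg1, Abcg2, Abca1 and Abcf1 in arterial and Abcg1 and Abcc6 in venous ECs were kept. Abcc4 was not called between the subtypes over all groups together. Abcb1a was not called in arterial ECs (-0.34 ± 0.16, adjusted p = 0.119), but was called lower there with pairs summed (-0.50, adjusted p = 0.0444) and without those groups (-0.42, adjusted p = 0.0344).

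The pumps changed differently along the tree between P10 and adult, a test that was chosen after the values had been seen. Arterial Abcb1a was measured at 519, 359, 381 and 401 CPM at P10 and at 422, 500 and 479 CPM in adults, which overlap. Capillary Abcb1a was measured at 233, 242, 336 and 345 CPM at P10 and at 747, 958 and 977 CPM in adults, which do not. The arterial change was above the capillary one by 1.32 ± 0.15 on the log2 scale (edgeR adjusted p = 1.69e-11).

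Arterial Abcg2 was measured at 407, 329, 412 and 404 CPM at P10 and at 259, 197 and 232 CPM in adults, so that P10 was the higher group. Capillary Abcg2 was measured at 276, 268, 370 and 385 CPM at P10 and at 870, 890 and 858 CPM in adults. In the cells of these 2 names Abcg2 moved in opposite directions, and the changes differed by 2.08 ± 0.15 (edgeR adjusted p = 6.73e-22). Adults had arteriolar capillary cells named apart and P10 had none, and the part of this was not tested. With Abcc4 (0.76 ± 0.23) these were the 3 members of 27 called for arteries at P10 (14.6% of all genes), and Abcc4 was lost without Adult 2. All 3 were kept without the capillary ECs led by genes of other types.

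Cells named venous differed from capillary ones in the P10 change of 4 members (5.38% of all genes). These were Abca1 (-1.25 ± 0.27), Abcg1 (-1.21 ± 0.23), Abcc4 (-0.73 ± 0.22) and Abcg2 (0.57 ± 0.15). The adult venous cells (123) were led by Ch25h, Vcam1, Lrg1, Ptgs2 and Icam1. Those of P10 (262) were led by Adh1, Darc, Fmo1 and Cbln2, with Icam1 further down. Icam1 and Vcam1 mark the reactive endothelial venules that the paper sets apart within venous ECs. The part of this was not tested. Venous Abcg1 was measured at 109, 82.1, 116 and 87.2 CPM at P10 and 116 and 73.5 CPM in adults, which overlap, while capillary Abcg1 was measured at 366, 403, 368 and 406 CPM and 123, 186 and 159 CPM. Without Adult 2 none of these 4 calls was kept, and venous adult ECs then came from 1 library. Without the capillary ECs led by genes of other types, Abcc4 and Abcg2 were lost and Abca1 and Abcg1 were kept. In EAE, Abca1 (1.02 ± 0.30) and Abcg1 (0.94 ± 0.22) differed between veins and capillaries (2.24% of all genes), neither in DESeq2 or with all near-identical libraries summed. Abca1 was lost without Juvenile 1, Adult 3 or EAE 2, and Abcg1 without Adult 3 or EAE 1. No member differed for the arteries in EAE (2.32%) or for either subtype at 18 months (1.02% and 0.935%) by edgeR or DESeq2. At an unadjusted p under 0.05 there were 2, 2 and 1 members, given without the share of all genes.

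**Figure D4:**
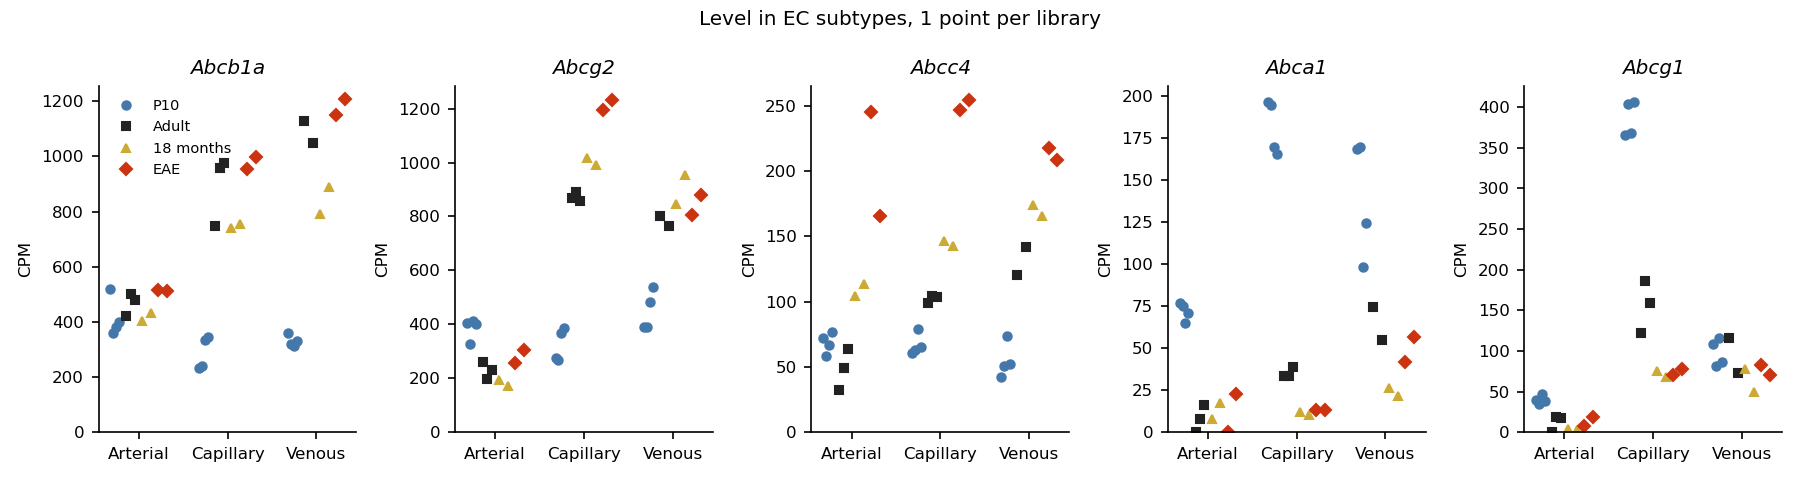
Levels of 5 members in arterial, capillary and venous ECs, in CPM, with 1 point per library and colours for P10, adult, 18 months and EAE. Subtypes were named within each group. In adults Abcb1a, Abcg2 and Abcc4 are lower in arteries than in capillaries, while at P10 arterial Abcb1a and Abcg2 lie at 359 to 519 CPM and 329 to 412 CPM, within or above the capillary range.

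Since free RNA of other cells enters droplets, the pumps were set beside the summed UMIs of 10 EC markers in the same cells. In adult ECs there were 28.5 to 32.7 Abcb1a UMIs and 27.4 to 33.0 Abcg2 UMIs per 1000 EC marker UMIs. In adult choroid plexus these ratios were 16.5 to 21.9 for Abcb1a and 24.6 to 32.0 for Abcg2, and at P10 they were 6.2 to 15.2 and 10.7 to 21.2, against 13.3 to 18.5 and 16.1 to 19.2 in P10 ECs. In adults the choroid plexus ratio of Abcb1a was below that of ECs and that of Abcg2 overlapped with it. At 18 months and in EAE the Abcg2 ratio in the choroid plexus, 40.9 to 47.1 and 47.3 to 47.7, was above that of ECs, 31.0 to 31.3 and 36.3 to 37.3. The Abcb1a ratio in the choroid plexus, 16.5 to 21.0 at 18 months and 29.8 to 32.3 in EAE, was below that of ECs, 25.1 to 26.5 and 34.0 to 35.5.

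Values for 2 other pairs of pump and cell type lay above the EC ratio in every P10 and every adult library. Abcg2 in microglia had 167 to 204 UMIs per 1000 EC marker UMIs at P10 and 46.2 to 57.8 in adults. At P10 alone, the Abcg2 ratio was also above that of ECs (16.1 to 19.2) in pericytes (33.6 to 48.1) and PVMs (22.6 to 70.4). Microglia had 14.8 Abcg2 UMIs for each Abcb1a UMI at P10, whereas ECs of the 4 groups had 0.905 to 1.21. Pericytes had 27 at P10 and 15 in EAE, each resting on 1 Abcb1a UMI. Abcc4 in choroid plexus stood at 30.3 to 47.1 at P10 and 13.2 to 15.1 in adults, against 2.7 to 3.5 and 3.6 to 3.8 in ECs. The EC markers in both types were lower at P10 (given above), so a higher ratio at P10 is not a higher level of the pump. In CPM, Abcc4 was called lower in the P10 choroid plexus, and Abcg2 was not called in P10 microglia.

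**Figure D5:**
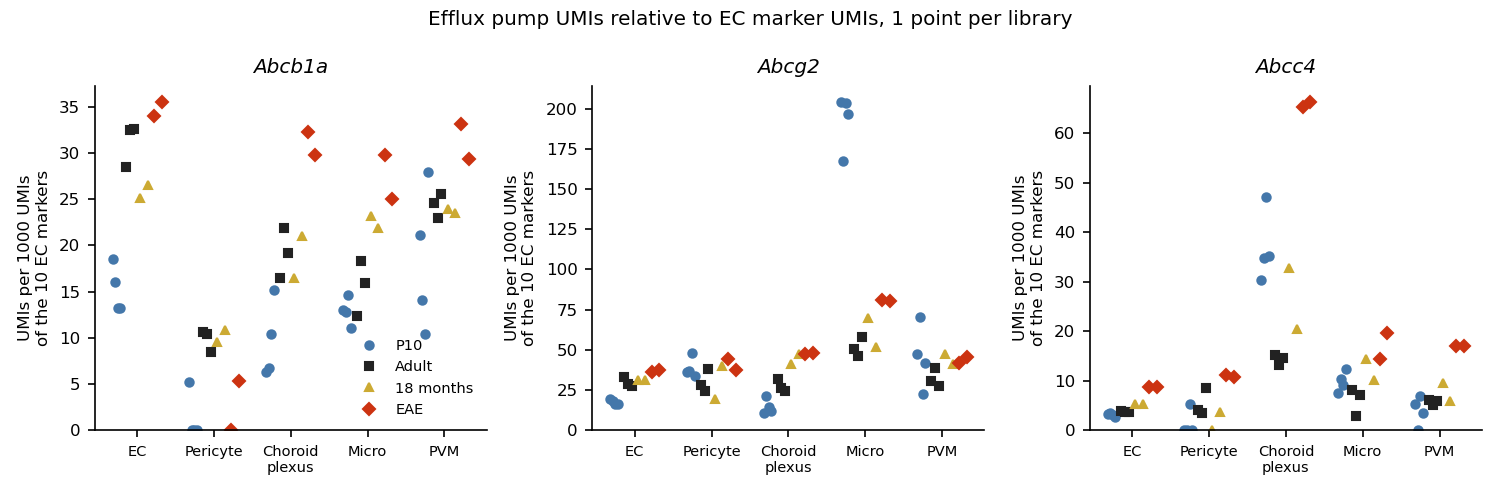
UMIs of Abcb1a, Abcg2 and Abcc4 per 1000 UMIs of 10 EC markers in 5 cell types, with 1 point per library and colours for P10, adult, 18 months and EAE. Abcb1a is at or below the EC ratio in adult choroid plexus and microglia, while Abcg2 in P10 microglia and Abcc4 in the choroid plexus are far above it.

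Genes that work with the transporters were counted from lists that hold no member. Of 16 sterol genes tested in ECs, 2 rose and 7 fell at P10, 1 rose and 2 fell at 18 months, and 4 rose and 1 fell in EAE, where 48%, 9.51% and 31.9% of all genes were called in either direction. Of 8 regulators of efflux pumps (receptors and transcription factors such as Ahr and Nfe2l2), 2 rose and 4 fell at P10, 2 rose and 0 fell at 18 months, and 1 rose and 3 fell in EAE. Of 8 organic anion and cation carriers, 3 rose and 1 fell at P10, 0 rose and 1 fell at 18 months, and 0 rose and 4 fell in EAE. Slco1a4, an organic anion carrier of the blood-brain barrier, had 383 to 624 CPM in P10 ECs and 2017 to 2251 CPM in adults (-2.0 ± 0.17, log2). None of 4 genes of peroxisome import was called in ECs in any of the 3 comparisons.

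The 11 members that could not be tested in any type were among the rare ones listed here. Over all 50625 cells Abcb5 had 1 UMI, Abca15 and Abcc2 3 each, Abcb11 5, Abcg8 14, Abcc12 28, Abca17 35, Abca14 60 and Abca13 62. Abcb11, the bile salt export pump of the liver, and Abcc2, the pump of the bile canaliculus, were at the limit of detection at this depth. Abca8b (99 UMIs), Abca6 (128) and Abcg4 (205) were rare as well, but the 11 do not include all 3 of them.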

How the data were processed

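Single-cell RNA from the 11 libraries was sequenced by the authors, who deposited whole-number UMI counts per gene and cell. The submitters' processing notes name bcl2fastq 2.19.1.403, UMI-tools 0.5.3, STAR 2.5.3a, featureCounts 1.6.1 and the mm10 build. A cell was kept if it had over 500 genes, under 6000 genes and less than 25% of its UMIs from mitochondrial genes, the filter given by the study. Seurat 5.3.0 (scale factor 10000, 2000 variable genes, 12 components, resolution 0.5) clustered them without the members and partner genes. Doublets called by Scrublet (scanpy 1.11.5; 818 cells, 1.62%) were left out only in an alternative.

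UMI counts were summed per library and cell type (at least 10 cells) and tested with the edgeR 4.0.16 quasi-likelihood test (TMM, filterByExpr, R 4.3.3), with all 4 groups in a fit and Benjamini-Hochberg adjustment over all genes tested. A call has an adjusted p under 0.05. The fits were also run on simulated counts with known folds, and the outcome is not given here. DESeq2 1.42.0 was an alternative. Totals were 15755504 to 34326349 UMIs per library, and floors cover counting error only. Gene positions follow GENCODE for GRCm38, and promoters follow RefSeq.

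The members and lists were chosen with earlier results of these data known. The limits for naming clusters, and the test of subtype by group, were chosen after values had been seen. The members named with a value in every library were Abcb1a, Abcb1b, Abcg2, Abcc4, Abcc9, Abca1 and Abcg1 in the type where each was highest, and the called member with the largest change and at least 10 CPM in each type and comparison. All comparisons of condition share the adult libraries. Same-numbered libraries of different groups did not deviate together, so the numbers were not used as pairs. Values of some members are not reported here, although counts of members include all of them.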

Additional observations from a re-analysis of the deposited data

Results flagged for a closer look

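The results below were picked out because a member changed differently in 2 cell types or EC subtypes by a test of the difference itself (edgeR, adjusted p under 0.05). Each value is the change in the type named first minus that in ECs, on the log2 scale. EC marker RNA in the choroid plexus and microglia was lower at P10 and in EAE than in adults (given above). Its part in the differences of the pumps was not tested.

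At P10 against adult, the choroid plexus differed from ECs by -1.21 in Abca1, -1.58 in Abcg1, -1.08 in Abcb1a and -1.59 in Abcg2. Microglia differed by -1.64 in Abca1, -1.69 in Abcg1, -0.76 in Abcb1a, which was lost with near-identical pairs summed, and 1.08 in Abcg2. PVMs differed by -1.53 in Abca1 and -2.41 in Abcg1.

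At 18 months, the choroid plexus differed from ECs by 1.70 in Abca1 and 1.12 in Abcg1, microglia by 1.64 in Abca1 and 1.11 in Abcg1, and PVMs by 0.96 in Abca1, the last lost in DESeq2 and without Adult 3, Aged 1 or Aged 2. Abca1 and Abcg1 fell in ECs in this comparison. Without the capillary ECs led by genes of other types, both differences in Abcg1 were no longer called, and with a library left out the choroid plexus one was lost without Aged 2 and the microglia one without Aged 1.

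In EAE, the choroid plexus differed from ECs by 0.87 in Abca1, 0.59 in Abcg1, -0.89 in Abcc4, -1.31 in Abcb1a and -1.39 in Abcg2. Per 1000 EC marker UMIs, choroid plexus Abcb1a was 16.5 to 21.9 in adults and 29.8 to 32.3 in EAE. Abcg2 was 24.6 to 32.0 and 47.3 to 47.7 on that measure. Microglia differed by 1.28 in Abcg1, -1.05 in Abcc4, -0.90 in Abcg2 and -2.25 in Abcb1b. Microglial Abcg2 per 1000 EC marker UMIs was 46.2 to 57.8 in adults and 80.2 to 80.8 in EAE. PVMs differed by 2.16 in Abcg1, where ECs fell and PVMs rose. Without the same capillary ECs, the difference in Abcg1 was lost for the choroid plexus, as it was without EAE 1 or EAE 2, and kept for microglia and PVMs.

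EC subtypes were named within each group. Among them, the P10 change in arteries minus that in capillaries was 2.08 in Abcg2, 1.32 in Abcb1a and 0.76 in Abcc4. In veins it was -1.25 in Abca1, -1.21 in Abcg1, -0.73 in Abcc4 and 0.57 in Abcg2, the last 2 lost without the same cells. In EAE the venous change minus the capillary one was 1.02 in Abca1 and 0.94 in Abcg1, neither kept in DESeq2 or with each library left out. A check for a library far from the others needed 4 libraries, which only P10 has. In 18 sets of values from these 4 libraries, 0 were found. The P10 libraries form near-identical pairs, which leaves little room for a single library apart. The other groups, with Adult 1 among them, were not covered.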

How the results depend on the processing

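No main call of a condition turned its direction under another scaling. The count at P10, 50, was 29 with all near-identical libraries summed (an alternative chosen after seeing the data) and 46 to 51 with each library left out. The count of 8 at 18 months was 5 with the 3 pairs summed, 0 with all summed, and 2 to 12 with each library left out, with 2 without Aged 1 and 4 without Aged 2. The count of 34 in EAE was 7 with all summed and 18 to 37 with each library left out, with 21 without EAE 1 and 18 without EAE 2. With all summed, the Aged and EAE groups hold 1 sample each, which is assumed to vary like the other groups.

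Between EC subtypes the count of 11 was 5 with all summed and 8 to 13 with a library left out. Differences from ECs numbered 53, 30 with all summed and 44 to 53 with a library left out. Differences of change between subtypes numbered 9, 4 with all summed and 4 to 10 with a library left out, with 4 without Adult 2 and 5 without Adult 3. Type calls numbered 50 to 52 with a library left out. The shares of all genes beside the main counts are given with each comparison above. Those for fits with a library left out, with all summed or with a replicate block are not given.

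With the replicate number as a block, 46, 6 and 35 calls were made at P10, 18 months and in EAE over the 5 types, and correlations between same-numbered libraries ran from -0.178 to 0.165. Of 672 values of 32 results for single genes, 607 stayed on their side of the threshold, 65 lost it and 0 reversed. Leaving out the finer clusters led by genes of other types, chosen after seeing the data, lost 3 of them, Abcg1 in ECs at 18 months and in EAE and Abca1 in ECs in EAE. The cause of these differences was not tested. Library totals alone moved the median of all genes by -0.21 to 0.19 (log2).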

Other observations

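Members were also measured in cell populations outside the 5 barrier types. Fibroblasts held Abcg2 at a median of 310.5 CPM over the libraries (195.5 to 813.6), Abcb1a at 151.3 CPM (26.1 to 346.8) and Abcd3 at 193.9 CPM. Astrocytes held Abcc5 at 162.1 CPM, Abca1 at 125.7 CPM, Abcd3 at 112.4 CPM and Abcb9 at 91.2 CPM. Monocyte-like cells held Abcg1 at 171.0 CPM (98.9 to 230.3), and ependymal cells, present in 6 libraries, held Abca1 at 117.4 CPM and Abcd3 at 108.4 CPM. These populations were small or unevenly spread over the groups, and no test was run on them.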
